A study of Homo sapiens with 4 samples.

Results

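The cornified envelope precursor genes are a set of 10 genes that code for the building blocks of the cornified envelope and for the machinery that acts on them. The members were SPRR1A, SPRR1B, SPRR3, SPRR2A, SPRR2D, IVL, TGM1, PPL, EVPL and CSTA. They were taken by gene symbol from the deposited tables of all 4 libraries, and all 10 were found among the 53826 listed entities. The RNA came from PK-1, an established human line of pancreatic ductal adenocarcinoma of the well-differentiated kind, with 1 library for each of 4 conditions. Stable SPRR1A cells carried the retroviral vector pMXs with SPRR1A and a FLAG tag, and stable DsRed cells carried pMXs with the red fluorescent protein DsRed. Transient SPRR1A cells were transfected with a pCAG plasmid that held the same tagged SPRR1A, and transient GFP cells with pCAG and green fluorescent protein. The study overexpressed SPRR1A to test whether it makes such cancer cells behave aggressively. RNA was then sequenced to look for expression changes that the phenotype did not show. With 1 library per condition, no difference had a replicate check and no test was run. The values below are log2 TPM (a transcript abundance, the reads of a gene divided by its length and scaled to a common library total), and a value of 0 means a TPM of 1 or less, which is called the floor.

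The cornified envelope is an insoluble protein shell that replaces the plasma membrane of squamous cells at the end of their differentiation. Involucrin, envoplakin and periplakin are laid down first beneath the membrane as a scaffold, and loricrin and small proline-rich (SPRR) proteins are then crosslinked onto it by transglutaminases. The envelope belongs to stratified squamous epithelia such as epidermis and esophagus, and ductal epithelium of the pancreas does not normally form one.

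Of the 10 members, 6 lie in the epidermal differentiation complex on chromosome 1 of GRCh38, where genes of the envelope stand side by side. By position these are IVL (152908546 to 152911886), SPRR1A (152984081 to 152985814), SPRR3 (153001749 to 153003856), SPRR1B (153031203 to 153032900), SPRR2D (153039732 to 153041120) and SPRR2A (153056120 to 153057512). All 6 have 2 exons in their reference transcript of GENCODE 44, the last of which codes for the protein in the SPRR genes. Elsewhere lie CSTA on chromosome 3 (122325248 to 122341969, 3 exons), TGM1 on chromosome 14 (24249114 to 24263177, 15 exons), PPL on chromosome 16 (4882507 to 4937148, 22 exons) and EVPL on chromosome 17 (76006845 to 76027306, 22 exons). The short SPRR genes have a coding sequence of 219 to 510 nt, whereas that of EVPL has 6102 nt.

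Promoter windows, from 250 bases before to 50 bases after the annotated start, were given by RefSeq (GRCh38.p14) for 5 of the 10 members, SPRR1A, SPRR1B, SPRR3, SPRR2A and IVL. Windows of SPRR2D, TGM1, PPL, EVPL and CSTA were not used here. The windows are shown because AP-1, the dimer of FOS and JUN proteins, is known to act on genes of this class, and the letters TGANTCA that it prefers occurred in all 5. Capitals mark those letters, and each sequence reads 5′ to 3′ on the strand of its gene.
SPRR1A, chr1:152983831-152984130, plus strand: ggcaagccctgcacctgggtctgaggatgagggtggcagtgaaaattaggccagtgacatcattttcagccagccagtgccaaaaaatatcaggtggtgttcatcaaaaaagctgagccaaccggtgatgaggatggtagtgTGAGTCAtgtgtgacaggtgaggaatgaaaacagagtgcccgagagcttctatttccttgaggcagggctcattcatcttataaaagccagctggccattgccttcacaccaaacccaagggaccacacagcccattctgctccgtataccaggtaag
SPRR1B, chr1:153030953-153031252, plus strand: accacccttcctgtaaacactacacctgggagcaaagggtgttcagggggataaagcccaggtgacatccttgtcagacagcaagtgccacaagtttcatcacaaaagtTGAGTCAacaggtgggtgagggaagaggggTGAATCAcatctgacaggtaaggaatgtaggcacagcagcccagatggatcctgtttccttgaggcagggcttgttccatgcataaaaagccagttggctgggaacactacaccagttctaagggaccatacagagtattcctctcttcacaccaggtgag
SPRR3, chr1:153001499-153001798, plus strand: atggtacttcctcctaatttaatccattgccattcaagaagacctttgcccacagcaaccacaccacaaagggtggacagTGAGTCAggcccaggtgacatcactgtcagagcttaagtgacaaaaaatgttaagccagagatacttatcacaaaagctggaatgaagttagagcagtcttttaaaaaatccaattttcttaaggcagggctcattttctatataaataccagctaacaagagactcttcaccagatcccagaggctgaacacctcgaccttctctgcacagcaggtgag
SPRR2A, chr1:153057463-153057762, minus strand: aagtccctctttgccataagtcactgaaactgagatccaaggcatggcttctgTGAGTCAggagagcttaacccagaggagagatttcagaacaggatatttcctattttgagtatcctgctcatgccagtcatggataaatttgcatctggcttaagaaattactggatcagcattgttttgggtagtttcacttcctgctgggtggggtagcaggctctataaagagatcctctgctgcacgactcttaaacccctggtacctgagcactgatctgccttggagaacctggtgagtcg
IVL, chr1:152908296-152908595, plus strand: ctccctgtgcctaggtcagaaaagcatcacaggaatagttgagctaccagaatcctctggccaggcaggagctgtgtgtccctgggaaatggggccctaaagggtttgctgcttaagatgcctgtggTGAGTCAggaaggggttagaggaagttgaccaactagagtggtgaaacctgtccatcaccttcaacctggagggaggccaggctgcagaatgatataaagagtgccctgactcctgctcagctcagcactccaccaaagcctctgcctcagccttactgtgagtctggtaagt

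The letters TGANTCA were present in 7.71% of all 35116 promoter windows of the same length, searched on both strands. Counted from the start site, the match began at -108 in SPRR1A, at -141 and -111 in SPRR1B, at -170 in SPRR3, at -197 in SPRR2A and at -123 in IVL. In 5 of these 6 matches the middle letter was G. The TATA letters TATAAA, searched on the strand of the gene, occurred in 4 of the 5 windows, at -29 or -30, against 7.33% of all windows. SPRR1B was the exception. The ETS letters AGGAAG were found on either strand in 4 of the 5 windows against 33.6% of all windows, with SPRR1A the exception, and the KLF letters CCACCC in 4 of the 5 against 34.3%, with IVL the exception. In IVL, an ETS match at -117 began at the last base of the AP-1 match. SPRR genes are copies of one another, so the windows are not independent, and a match of letters is a description and not a site.

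The members ranged from the floor to the highest level of a library. SPRR1A was measured first, since it was the gene introduced. In the stable model its log2 TPM was 10.93 with SPRR1A and 0.75 with DsRed, and in the transient model 16.60 with SPRR1A and 3.56 with GFP. It ranked 66th among entities above the floor in stable SPRR1A cells and 1st in transient SPRR1A cells, where it took 9.90% of the TPM total. Both SPRR1A libraries therefore carried the labelled gene at a far higher level than their controls.

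SPRR1B, the closest relative of SPRR1A, was the SPRR gene with the highest level in both control libraries. In stable cells its log2 TPM was 6.50 with SPRR1A and 6.55 with DsRed, and in transient cells 8.10 with SPRR1A and 8.27 with GFP. Both stable libraries lay together, and both transient libraries stood above them. SPRR3, a precursor of the moist epithelia of mouth and esophagus, had a log2 TPM of 4.50, 4.74, 4.70 and 4.47 in the same order of libraries. SPRR2A was listed at 0 in 3 libraries and at 0.25 in transient GFP cells, and SPRR2D was listed at 0 in all 4.

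Among the scaffold proteins, periplakin (PPL) was the most abundant, with a log2 TPM of 7.48 (SPRR1A) and 7.42 (DsRed) in stable cells and of 7.45 (SPRR1A) and 7.53 (GFP) in transient cells. Its partner envoplakin (EVPL) had 5.13, 5.19, 4.95 and 5.04 in the same order. Involucrin (IVL), the scaffold protein that transglutaminases crosslink first, had 5.18, 4.92, 4.73 and 4.85. The 4 values of each scaffold gene lay within 0.5 of each other on the log2 scale. Cystatin A (CSTA), an inhibitor of cysteine proteases that is also built into the envelope, had 6.89, 6.58, 7.49 and 7.58, with the transient libraries above the stable ones.

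TGM1, the membrane-bound transglutaminase 1 that crosslinks the envelope in keratinocytes, was listed at 0 in all 4 libraries. The related enzyme TGM2, which is widely expressed and is no defining enzyme of the envelope, had a log2 TPM of 10.31 to 10.54. TGM3 and TGM5, the other transglutaminases of the epidermis, were listed at 0 in all libraries. The scaffold and some SPRR precursors were thus above the floor in libraries where the 3 epidermal crosslinking enzymes were not.

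**Figure D1:**
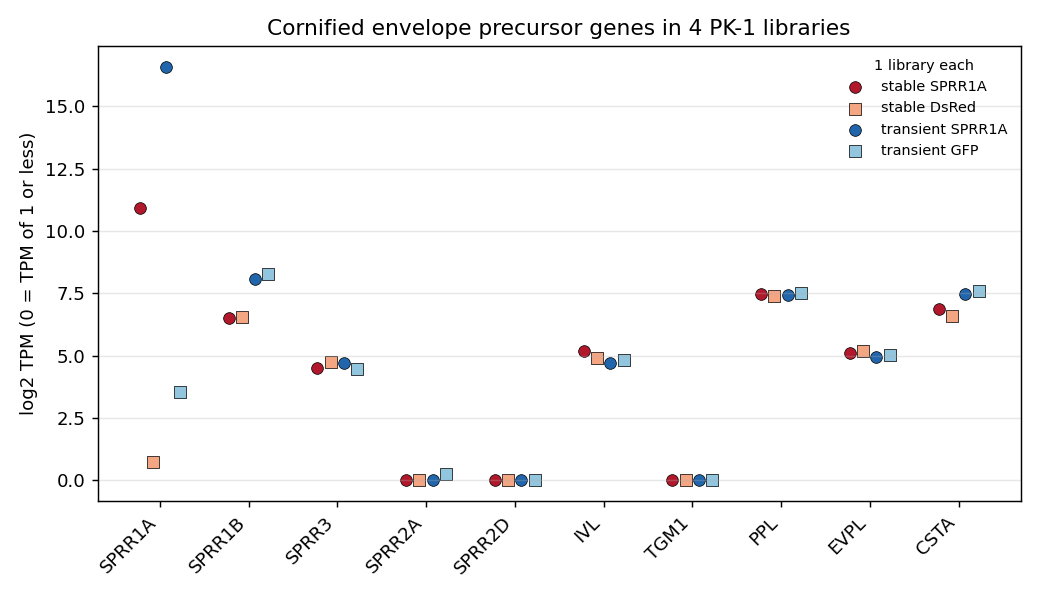
Level of each member, as log2 TPM on the vertical axis, in the 4 libraries, with 1 point per library. SPRR1A spans 0.75 to 16.60, SPRR1B and CSTA are higher in both transient libraries than in both stable ones, and SPRR2D and TGM1 lie at the floor throughout.

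In stable DsRed cells the order of the levels was PPL, CSTA, SPRR1B, EVPL, IVL, SPRR3 and SPRR1A, from 171 down to 1.68 TPM. In transient GFP cells it was SPRR1B, CSTA, PPL, EVPL, IVL, SPRR3, SPRR1A and SPRR2A, from 309 down to 1.19 TPM. PPL ranked 869th and SPRR1B 1745th among entities above the floor in stable DsRed cells, and 799th and 460th in transient GFP cells. Whether neighbours in these orders differ beyond the spread of replicates cannot be told from 1 library each. The members other than SPRR1A summed to 481 TPM with SPRR1A and 454 TPM with DsRed in stable cells, and to 712 TPM with SPRR1A and 770 TPM with GFP in transient cells.

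The gene counts of such close relatives can share reads, so the coding sequences were compared. Those of SPRR1A and SPRR1B were identical at 260 of 270 aligned positions (96.3%). Of the 221 stretches of 50 bases in the coding sequence of SPRR1A, 25 also occurred in a transcript of SPRR1B, and of the 196 stretches of 75 bases none did. In the transient SPRR1A library SPRR1A was 99019 TPM above its control, while SPRR1B was 34.9 TPM below it (274 against 309 TPM). In the stable SPRR1A library SPRR1A was 1956 TPM above its control and SPRR1B differed from it by -3.27 TPM. In the transient model SPRR1A itself takes part of the TPM total. The log2 difference of SPRR1B there was -0.17 as deposited, -0.02 with SPRR1A left out of the total and 0.01 after centring, so that its direction depended on the scaling. For SPRR2A and SPRR2D the picture was different, since 81.4% and 34.5% of their stretches of 75 bases also occurred in other SPRR2 genes, and the level of a single SPRR2 gene is uncertain. How reads with several matches were handled, and how long the reads were, is not given in the sources used here.

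The value of SPRR1A pools the native gene and the introduced cDNA, which cannot be told apart here. The reference transcript of SPRR1A has 648 nt, of which 270 nt are coding. In the controls, SPRR1A was at 0.0857% of the level in stable SPRR1A cells (1.68 TPM) and at 0.0119% of that in transient SPRR1A cells (11.8 TPM). In both controls SPRR1B exceeded SPRR1A, by 55.8-fold in stable DsRed and by 26.1-fold in transient GFP cells.

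The first comparison asked whether the other precursors follow a stable excess of SPRR1A. Between stable SPRR1A and stable DsRed cells, only SPRR1A among the members was past the 2-fold threshold that the study used (a log2 difference above 1 or below -1), with a log2 difference of 10.19. The 6 other members above the floor in either library differed by -0.24 to 0.31, with 3 higher and 3 lower and a median of 0.01. CSTA (0.31) and IVL (0.26) had the highest differences and SPRR3 (-0.24) the lowest, while PPL differed by 0.06, SPRR1B by -0.05 and EVPL by -0.07. Of all 13310 entities above the floor in either library, 0.526% were higher and 0.421% lower by more than 2-fold. The SD of the differences of 9835 well expressed entities (TPM 5 or more in each library, SPRR1A left out) was 0.17 around a median of 0.06. All 6 differences lay in the central 95% of these entities, between -0.27 and 0.41.

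The second comparison asked the same of a transient excess, in which SPRR1A reached a level 50.6-fold above that of the stable SPRR1A library. Between transient SPRR1A and transient GFP cells, SPRR1A again was the member past the threshold, with a log2 difference of 13.03, against 0.190% of 13717 entities higher and 0.700% lower. Of the 7 other members above the floor, 6 had a lower value and 1 a higher one, from -0.25 to 0.23. The values of well expressed entities had a median of -0.18 here, so that the deposited scale itself was shifted down in the transient SPRR1A library. SPRR1B (-0.17), IVL (-0.12), EVPL (-0.09), PPL (-0.09) and CSTA (-0.09) all lay above that median, and they became 0.01, 0.06, 0.09, 0.10 and 0.10 when differences were centred on it, so their direction depended on the scaling. SPRR3 stood apart with 0.23, or 0.42 after centring, above the central 95% of well expressed entities, which ran from -0.43 to 0.07. SPRR2A was at 0.25 in transient GFP cells and at the floor in transient SPRR1A cells.

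**Figure D2:**
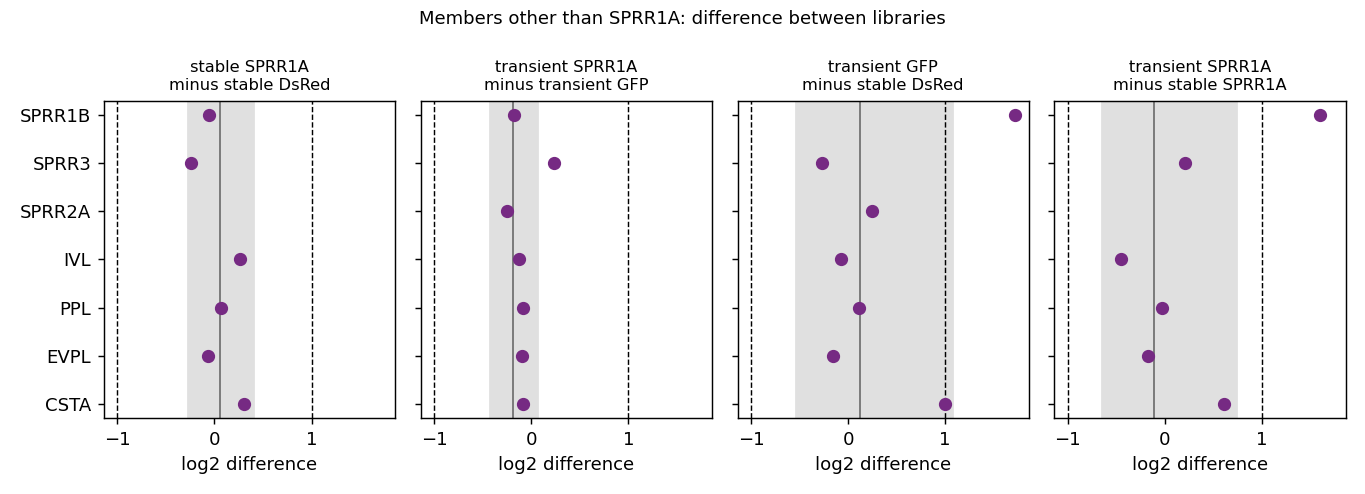
Log2 difference of each member other than SPRR1A (points) in 4 comparisons, for the 7 members above the floor in any library. Grey bands hold the central 95% of well expressed entities, grey lines their median, and dashed lines the 2-fold threshold. SPRR1B passes 1 in both comparisons of transient with stable cells and lies inside the band in both comparisons of SPRR1A with its control.

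SPRR1B and CSTA had larger differences between the modes of delivery than between SPRR1A and its control in either model. Between transient GFP and stable DsRed cells, neither of which received SPRR1A, 2 of the 8 members above the floor were higher by more than 2-fold and none was lower, against 6.86% of 13761 entities higher and 0.661% lower. SPRR1A stood at 11.8 TPM with GFP and at 1.68 TPM with DsRed, which is 2.82 on the log2 scale. The DsRed value lies near the floor. Of the 221 stretches of 50 bases of SPRR1A, 25 are shared with the more abundant SPRR1B, and of those of 75 bases none is. Whether reads of SPRR1B add to the low values of SPRR1A was not tested. SPRR1B was 309 TPM against 93.5 TPM, a log2 difference of 1.72, which lay above 99.6% of the well expressed entities. CSTA was 191 TPM against 96.0 TPM, a log2 difference of 0.995 and so just inside the threshold. PPL (0.12), IVL (-0.07), EVPL (-0.15) and SPRR3 (-0.27) differed by less than the SD of well expressed entities, which was 0.42 around a median of 0.12.

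Between the SPRR1A libraries of both models, SPRR1B was 274 TPM in transient and 90.3 TPM in stable cells, a log2 difference of 1.60. SPRR1A had a log2 difference of 5.66, in which the vectors themselves take part. These 2 members were past the threshold out of 7 above the floor, against 2.61% of 13549 entities higher and 0.974% lower. CSTA differed by 0.60, SPRR3 by 0.21, PPL by -0.03, EVPL by -0.18 and IVL by -0.46. Well expressed entities had a median of -0.11 and an SD of 0.35. The comparisons between models use the same 4 libraries as those within models, so these values are not independent of the ones above. Vector, delivery, fluorescent protein and culture history differ together between the models and cannot be told apart.

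The profile of SPRR1B over the 4 libraries was set against the 9658 entities that reached 5 TPM in every library. After each profile was centred on its own mean, the 3 nearest by Euclidean distance were GADD45B (distance 0.05), NDRG1 (0.08) and GEM (0.08). GADD45B, a stress-induced growth arrest gene, had a log2 TPM of 4.95 and 4.96 in the stable cells with SPRR1A and DsRed, and of 6.54 and 6.66 in the transient cells with SPRR1A and GFP. With 4 libraries many profiles can lie close to each other, and the distance is a description.

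The other structural genes of the envelope were mostly at the floor. Of the 42 listed, 34 were at the floor in all 4 libraries, among them loricrin, the main protein of the mature epidermal envelope, and filaggrin (FLG), which bundles keratin filaments. Of the 18 late cornified envelope (LCE) genes, 17 were at the floor throughout, and LCE3E was at 0.49 in transient GFP cells only. Of the 11 SPRR entities listed, 7 were at the floor throughout, which leaves SPRR1A, SPRR1B, SPRR3 and SPRR2A.

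The 4 of these genes that were above the floor in every library had different levels. Annexin A1 (ANXA1) had a log2 TPM of 9.24 to 9.66, desmoplakin (DSP), the plakin of desmosomes, 5.60 to 5.99, and sciellin (SCEL) 5.10 to 6.04. Cornifelin (CNFN) was low, at 1.41 to 2.16. The 34 genes at the floor throughout had no difference to compare. Only 6 or 7 of the 42 were above the floor in each of the 4 comparisons, and none of these was past 2-fold. Of all entities, 0.526% were higher and 0.421% lower with SPRR1A than with DsRed, and 0.190% and 0.700% than with GFP. Between the controls the shares were 6.86% and 0.661%, and between the SPRR1A libraries 2.61% and 0.974%. With so few genes, a count of 0 cannot be told from these shares. SCEL came nearest, at 6.04 with GFP and 5.10 with DsRed, 0.95 apart. The median difference of the genes above the floor was 0.18 over 6 genes in the stable model and -0.27 over 7 in the transient model, beside 0.07 and -0.19 over all entities above the floor.

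**Figure D3:**
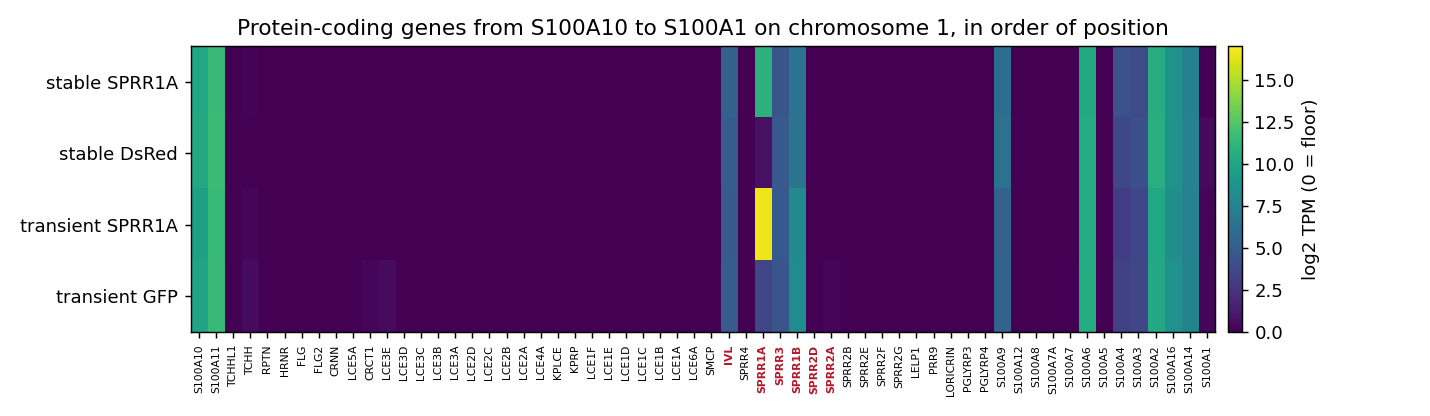
Log2 TPM (colour) of protein-coding genes from S100A10 to S100A1 on chromosome 1, in order of position, in the 4 libraries (rows), with the members in red. Between S100A11 and S100A9, only IVL, SPRR1A, SPRR3 and SPRR1B are above the floor in every library.

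Position along the epidermal differentiation complex showed where the expressed members stand. RefSeq places 93 genes from S100A10 to S100A1, and 87 of them were found in the tables. Of the 45 protein-coding genes between S100A11 and S100A9, 37 were at the floor in all 4 libraries and 4 were above it in all, namely the members IVL, SPRR1A, SPRR3 and SPRR1B. Their neighbours at the floor include SPRR4, which lies between IVL and SPRR1A, and SPRR2D, which follows SPRR1B. The level of SPRR2D is uncertain because of the stretches it shares with other SPRR2 genes.

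Among 21 enzymes and inhibitors of crosslinking and processing, 16 were above the floor in all libraries. The secreted protease KLK6 (log2 TPM 9.32 to 9.83), the cystatin CST6 (8.57 to 9.33), which inhibits cathepsins and legumain, and the lysosomal protease cathepsin D (CTSD, 8.52 to 9.19) had the highest mean levels over the 4 libraries after TGM2. Cystatin B (CSTB), a cytosolic inhibitor of cathepsins, was close to cathepsin D at 8.53 to 9.11. None of the 16 was past 2-fold in either comparison of SPRR1A with its control. Of all entities, 0.526% were higher and 0.421% lower (stable), and 0.190% and 0.700% (transient), so a count of 0 of 16 cannot be told from these shares. The median difference of the 16 was 0.01 (stable) and -0.17 (transient), beside 0.07 and -0.19 over all entities above the floor. Between transient GFP and stable DsRed cells 2 of 16 were higher by more than 2-fold, KLK7 (1.07) and KLK11 (1.36), beside 6.86% of all entities. Both had a TPM below 5 in each library and are named after their values were seen.

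The regulators of squamous differentiation were listed apart from the envelope genes. Of the 25 listed, 20 were above the floor in all libraries, all of them transcription factors but the receptor NOTCH1. In either comparison of SPRR1A with its control, 0 of 20 were past 2-fold. Of all entities, 0.526% were higher and 0.421% lower (stable), and 0.190% and 0.700% (transient). A count of 0 of 20 cannot be told from these shares. The median difference of the 20 was 0.07 (stable) and -0.18 (transient), beside 0.07 and -0.19 over all entities above the floor. Between transient GFP and stable DsRed cells, 6 of the 20 were higher by more than 2-fold and none was lower, beside 6.86% of all entities higher. Their median difference was 0.52, beside 0.18 over all entities above the floor.

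Of these 6 transcription factors, FOS, a component of AP-1, had a log2 TPM of 1.55 with SPRR1A and 1.495 with DsRed in stable cells, and of 3.42 with SPRR1A and 3.33 with GFP in transient cells. KLF4, a factor of terminal differentiation in epidermis, had 5.35, 5.22, 6.53 and 6.71 in the same order. For both genes, each transient library lay above each stable one by more than 1. The other 4 were the AP-1 component FOSL2 (log2 difference between the controls 1.23), the epithelial ETS factor EHF (1.16), OVOL1 (1.02) and TP63 (1.02), the master factor of squamous lineages. OVOL1 and TP63 were no longer past the threshold when differences were centred on the median of well expressed entities (0.90 and 0.89), and FOS and OVOL1 were below 5 TPM in stable DsRed cells (2.82 and 2.94 TPM). Between the SPRR1A libraries of both models, FOS (1.88), KLF4 (1.18) and OVOL1 (1.15) were past the threshold, and FOSL2 (0.79), EHF (0.54) and TP63 (0.43) were not. That is 3 of 20 higher and none lower, beside 2.61% and 0.974% of all entities. The median of the 20 was 0.34, beside -0.08 over all entities above the floor. FOS and OVOL1 were below 5 TPM in stable SPRR1A cells (2.92 and 3.15 TPM).

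The AP-1 components spanned a range of differences. The most abundant were FOSL1 (log2 TPM 8.13 to 8.43) and JUNB (7.18 to 7.49), and between the controls they differed by -0.19 and -0.16. JUN differed by 0.97 and JUND by 0.65.

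**Figure D4:**
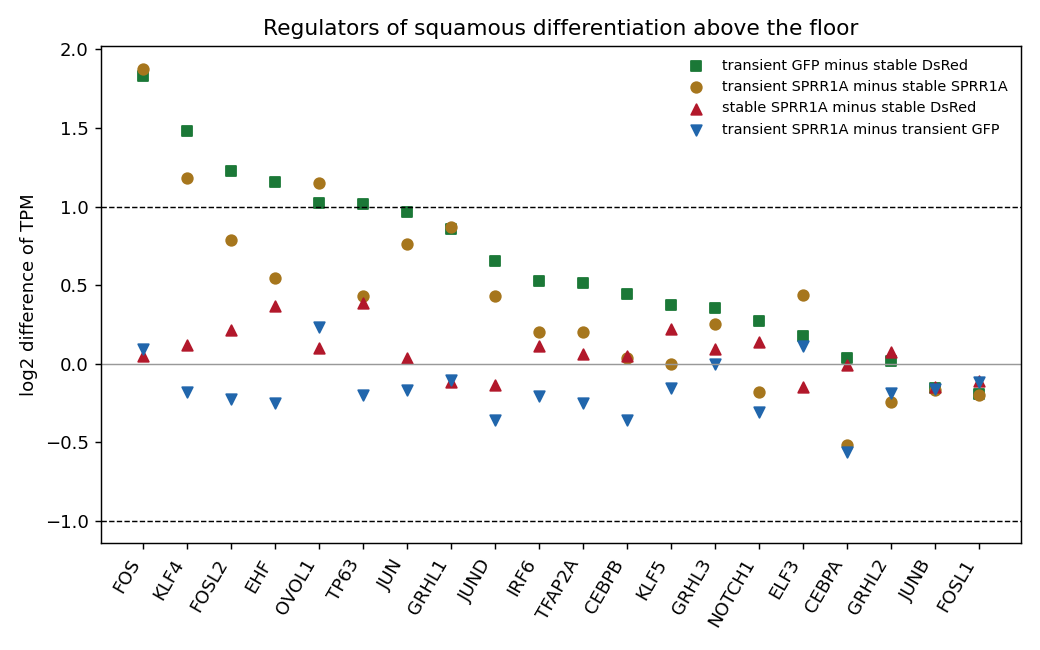
Log2 difference of 20 regulators above the floor in every library (horizontal axis, ordered by the difference between the controls) in 4 comparisons. Dashed lines mark the 2-fold threshold. Between transient GFP and stable DsRed cells 6 regulators pass it (4 after centring, without OVOL1 and TP63), where 6.86% of all entities are higher. Between SPRR1A and its own control 0 pass it, where 0.526% (stable) and 0.190% (transient) of all entities are higher and 0.421% and 0.700% lower.

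The label of the cells was checked against markers. The ductal keratins KRT7, KRT8, KRT18 and KRT19 had a log2 TPM of 11.47 to 12.94, and MUC1 lay near the floor (0 to 0.90). Markers of squamous epithelium were also present, with KRT5 at 9.59 to 10.30 and KRT13 at 11.34 to 11.96, while KRT1 of the cornified epidermis was listed at 0 throughout. The summed TPM of the 8 squamous markers was 5007 with SPRR1A and 4862 with DsRed in stable cells, and 3800 with SPRR1A and 4367 with GFP in transient cells. KRT13 made up most of these sums. Without KRT13 the markers summed to 1139 TPM with SPRR1A and 878 TPM with DsRed in stable cells, and to 1215 TPM with SPRR1A and 1377 TPM with GFP in transient cells. The sum was thus lower in the transient libraries with KRT13 and higher without it, and its part in the values of the members was not tested. Of these markers, KRT4 (1.02) and the low KRT14 (-1.004) were just past 2-fold in the stable model. That is 1 higher and 1 lower of 7 above the floor, beside 0.526% and 0.421% of all entities. DSG3 (0.54), TP63 (0.38) and KRT5 (0.37) were also higher there, and KRT13 (-0.04) and KRT10 (-0.19) were lower. The median of the 7 was 0.37, beside 0.07 over all entities above the floor, and this difference was not tested. Between the controls KRT4 differed by -1.25, TP63 by 1.02 and DSG3 by 1.52. That is 2 higher and 1 lower of 7, beside 6.86% and 0.661% of all entities. KRT5 (0.71) was also higher there, and KRT13 (-0.41), KRT10 (-0.28) and KRT14 (-0.17) were lower. The median of the 7 was -0.17, beside 0.18 over all entities above the floor. From the stable to the transient SPRR1A library, only KRT4 of the 7 was past 2-fold. It differed by -2.39, where 2.61% of all entities were higher and 0.974% lower. Of the markers of fibroblasts, leukocytes and endothelium, 12 of 15 were at the floor in all libraries, including PTPRC, COL1A2 and PECAM1. The leukocyte markers CD68 (log2 TPM 3.99 to 4.91) and LYZ (2.15 to 2.70) and the fibroblast marker COL1A1 (1.96 to 2.62) were above it in every library. The number of entities above the floor was 12964 to 13558 per library, and the depth in reads is unknown.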

How the data were processed

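Libraries were prepared from total RNA of PK-1 cells with a stranded mRNA kit and sequenced in paired-end mode. With Strand NGS at its default settings, the authors mapped reads to human transcripts (hg38, also named in the submitters' processing notes), expressed them as TPM, and deposited 1 log2 value per gene. Software version, annotation release and read length were not given in the sources used here. TPM keeps no read depth, so the precision of low values is unknown.

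From the deposited log2 values, differences between libraries were computed over all 53826 entities, and the study's 2-fold rule was applied. Background shares are over entities above the floor in either library. Members and lists were chosen with earlier results of these data known. Genes named are all members, the up to 4 most abundant genes of each list, listed genes past 2-fold that reached 5 TPM, and the 3 nearest profiles of members so changed between the controls. FLG, the loricrin gene, LCE3E, SPRR4 and other genes at or near the floor were picked after their values were seen, as were JUND, NOTCH1, CSTB, TGM3, TGM5, S100A9, KLK7, KLK11 and marker genes named for a difference. Loricrin was matched by Entrez identifier. Alternatives were log2(TPM + 1), log2(TPM + 0.1), SPRR1A left out of the TPM total, centring on the median difference, and filters on low values. Calculations were tested on simulated data. Python 3.11.15, numpy 2.4.6, pandas 2.3.3, Biopython 1.88 and matplotlib 3.10.9 were used, with RefSeq (GRCh38.p14) and GENCODE 44.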

Additional observations from a re-analysis of the deposited data

Results flagged for a closer look

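SPRR3 differed in opposite directions in the 2 models, by more than 1 SD of well expressed entities in each. After centring on the median difference, its log2 difference was -0.30 in the stable model (SD 0.17) and 0.42 in the transient model (SD 0.13), a gap of 0.72. Its level was 22.6 TPM with SPRR1A and 26.7 TPM with DsRed in stable cells, and 26.0 TPM with SPRR1A and 22.2 TPM with GFP in transient cells. With 1 library a condition, this gap was not tested.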

How the results depend on the processing

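No paired analysis was possible because there is 1 library a condition, and for the same reason no library could be left out. The side of the 2-fold threshold did not change for any difference of a member under log2(TPM + 1), log2(TPM + 0.1), centring or leaving SPRR1A out of the TPM total (120 of 120 values). Most of these differences were inside the threshold. Under log2(TPM + 1) and log2(TPM + 0.1) such a difference can only shrink, so its side was fixed in advance. Of the 96 recounts of genes past 2-fold in the 4 lists, 90 were within 1.5 times the count reported and 6 were not. Many of the 90 set a count of 0 beside 0. An added constant only shrinks differences and a filter only removes genes, so neither could raise a count of 0. That part of the agreement was fixed in advance. When both libraries had to reach 5 TPM, the members past 2-fold were 0 in the stable model and 1 between the controls, because this filter leaves out SPRR1A, which is below 5 TPM in stable DsRed cells. Under the same filter, the crosslinking and processing genes higher in transient GFP than in stable DsRed cells went from 2 to 0, and the squamous regulators higher in the transient SPRR1A library from 3 to 1. The crosslinking and processing genes were 0 under log2(TPM + 1), which shrinks differences of low values by construction, and 1 after centring. The regulators higher between the controls numbered 4 to 6 over all alternatives: OVOL1 and TP63 were lost by centring and by log2(TPM + 1), FOS and OVOL1 by the filter at 5 TPM. Centring turned the small negative differences of SPRR1B, IVL, PPL, EVPL and CSTA in the transient model positive. SPRR1B stayed past 2-fold in both comparisons of transient with stable cells, at 1.60 and 1.72 after centring. The floor hides any change below a TPM of 1, which limits what can be said of SPRR2A, SPRR2D and TGM1.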

Other observations

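Among the neighbours of the members in the epidermal differentiation complex, S100A4 was lower by more than 2-fold in the transient than in the stable SPRR1A library, with a log2 TPM of 3.06 against 4.24, and it was 3.66 in stable DsRed and 3.34 in transient GFP cells. That is 1 lower of the 17 genes of the complex above the floor in either SPRR1A library, beside 0.974% of all entities. The other S100 genes with a TPM of at least 5 stayed inside the threshold in all 4 comparisons. S100A9, a calcium-binding protein of inflamed epithelia, came nearest to it, with 6.32 in stable DsRed and 5.39 in transient GFP cells.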
